A study of Homo sapiens with 4 samples.

Results

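NF-κB subunits and their inhibitors were examined in prostate cancer cells that had been made to express an inducible NF-κB activation domain. The group held 10 genes, namely the subunit genes RELA, RELB, REL, NFKB1 and NFKB2, the inhibitor genes NFKBIA, NFKBIB and NFKBIE, and the regulators TNFAIP3 and BCL3. Members were found by the RefSeq transcript that the array design pairs with each probe. Of the 10 genes, 9 had a probe, and these were 10 of the 34112 non-control probes with a value on every array, since RELA was read by 2 probes. No probe was named NFKB2, so that subunit was not analysed here. All 19480 genes that could be named served as the background.

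NF-κB is a dimeric transcription factor built from subunits that share the Rel homology domain. In resting cells, IκB proteins hold most dimers in the cytoplasm, and the IκB kinase releases them by marking IκB for destruction. RELA, RELB and REL carry a transactivation domain, whereas the NFKB1 and NFKB2 products are processed to p50 and p52, which lack one. Several inhibitors, among them NFKBIA and TNFAIP3, are known targets of NF-κB and close a negative feedback loop.

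The samples were TR9_MeTA14 and TR15_MeTA5 cells, each grown without tetracycline (-Tet) or exposed to it for 4 days (+Tet). Both are stable lines from LNCaP, a human prostate cancer line, and both carry the Tet repressor and a tetracycline-regulated, FLAG-tagged NFκB (AD)-MBD construct, which joins an activation domain of NF-κB to a methyl-CpG binding domain. Each combination of line and treatment had 1 Cy3-labeled array, all 4 on the same slide, and no array held tetracycline-treated cells without the construct, so that effects of tetracycline and of the construct cannot be told apart. With 1 array per condition a change within a line has neither a replicate check nor a p-value, and precision is limited by how few arrays there are.

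Of the 34112 probes, 20558 to 24211 were well above background on each array. Each array measured all 10 markers of luminal prostate cells well above background. Their summed processed signal was 335009 without and 144348 with tetracycline in TR9_MeTA14, and 260394 and 243239 in TR15_MeTA5, with KLK3 the largest part. In multiples of the 75th percentile over all probes of an array, the sums were 543 and 186, and 711 and 449. At least 2-fold lower were 7 of the 10 in TR9_MeTA14 and 0 in TR15_MeTA5, beside 2273 of 15077 and 317 of 14344 genes. Of 10 markers of other cell types, 6 or 7 were well above background on each array, and on the same scale their sum went from 12.6 to 7.57 with tetracycline in TR9_MeTA14, whereas TR15_MeTA5 had 6.25 and 7.87. CD79A, a B cell marker, made up most of that sum, while CD14, a monocyte marker, was 9.62-fold and 4.77-fold higher with tetracycline in TR9_MeTA14 and TR15_MeTA5, as the 1 marker of the 6 compared in both lines that was 2-fold higher in both. KRT5, TP63 and COL3A1 were not well above background on any array. The luminal sum was thus lower and CD14 higher with tetracycline in both lines, and their part in the results on NF-κB genes was not tested. The arrays read bulk RNA of LNCaP-derived lines, in which fewer cells expressing a marker and less RNA per cell cannot be told apart.

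The upstream sequences of 3 members are shown because REL, NFKBIA and TNFAIP3 carry the binding sequence of NF-κB close upstream. REL and NFKBIA differed in how they moved with tetracycline, while TNFAIP3 was too dim for a fold change in TR9_MeTA14. Each sequence is the stretch of 250 bases before a RefSeq start in GRCh38.p14, printed 5′ to 3′ on the strand of the gene, with matches to the κB consensus on either strand in capitals. REL lies on the plus strand of chromosome 2 (chr2:60881324-60881573), NFKBIA on the minus strand of chromosome 14 (chr14:35404750-35404999) and TNFAIP3 on the plus strand of chromosome 6 (chr6:137867009-137867258).
REL: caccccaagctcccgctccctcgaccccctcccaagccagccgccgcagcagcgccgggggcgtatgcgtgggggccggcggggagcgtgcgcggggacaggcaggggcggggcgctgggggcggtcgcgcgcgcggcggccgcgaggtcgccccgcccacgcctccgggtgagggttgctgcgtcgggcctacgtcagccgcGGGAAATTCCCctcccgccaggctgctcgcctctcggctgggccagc
NFKBIA: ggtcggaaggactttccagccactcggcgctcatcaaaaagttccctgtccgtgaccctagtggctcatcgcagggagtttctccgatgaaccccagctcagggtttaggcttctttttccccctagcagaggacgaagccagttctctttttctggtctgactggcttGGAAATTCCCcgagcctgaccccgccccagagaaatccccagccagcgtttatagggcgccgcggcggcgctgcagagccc
TNFAIP3: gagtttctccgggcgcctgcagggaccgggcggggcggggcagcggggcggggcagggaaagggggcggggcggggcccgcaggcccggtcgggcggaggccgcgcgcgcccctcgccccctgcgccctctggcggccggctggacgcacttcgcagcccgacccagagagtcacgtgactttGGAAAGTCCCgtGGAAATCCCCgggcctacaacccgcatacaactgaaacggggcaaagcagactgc
In REL, 2 overlapping matches began 47 and 46 bases before the start. NFKBIA held 1 match, beginning 81 bases before the start, and TNFAIP3 held 2, at 67 and 55 bases. A match of this kind was present in 9.96% of the 35116 stretches of this length in the table, and 2 or more were present in 1.72%. CG dinucleotides numbered 36 in REL, 15 in NFKBIA and 29 in TNFAIP3, beside a median of 11 over all stretches. Of the other members in the table, NFKB1 had 1 match before the first of its 2 starts, NFKBIB had 2 before the second of its 2 starts and NFKB2 had 3 and 2 before the later 2 of its 3 starts. The stretches of RELA and BCL3 had none, and those starts of RELA held 42 and 4 CG dinucleotides. No stretch was available for RELB and NFKBIE, so these were not searched. A match is a description of the letters and no evidence of binding, and DNA methylation was not analysed here.

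With tetracycline, RELB, REL and 1 of the 2 RELA probes had levels 2-fold higher or more in both lines, and no member was 2-fold lower in either. Values are given for TR9_MeTA14 first and TR15_MeTA5 second throughout. The increases after scaling were 4.22-fold and 5.01-fold for RELB, 3.33-fold and 2.10-fold for REL and 5.61-fold and 3.01-fold for the RELA probe. NFKB1, BCL3 and the inhibitor genes NFKBIA, NFKBIB and NFKBIE differed by at most 1.57-fold between the arrays of a line. Of 9 member probes compared in TR9_MeTA14, 3 were at least 2-fold higher, beside 15.2% of all 24244 probes compared. In TR15_MeTA5 it was 3 of 10, beside 8.50% of 22342 probes. In both lines together it was 3 of 9, beside 7.02% of 21663 probes. These counts take the 2 RELA probes singly, and the other one, A_23_P104689, had log2 fold changes of 0.29 and -0.16. Whether the higher RELA probe reads RNA of the construct was not tested. The count in both lines was 2 with quantile normalization and after normexp, where REL fell under 2-fold in TR15_MeTA5. At least 2-fold lower were 15.1% of all probes in TR9_MeTA14 and 2.67% in TR15_MeTA5, and 0 members. The median log2 fold change of the members was 0.29 in TR9_MeTA14 and 0.34 in TR15_MeTA5, whereas that of all probes compared was -0.06 and -0.16.

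**Figure D1:**
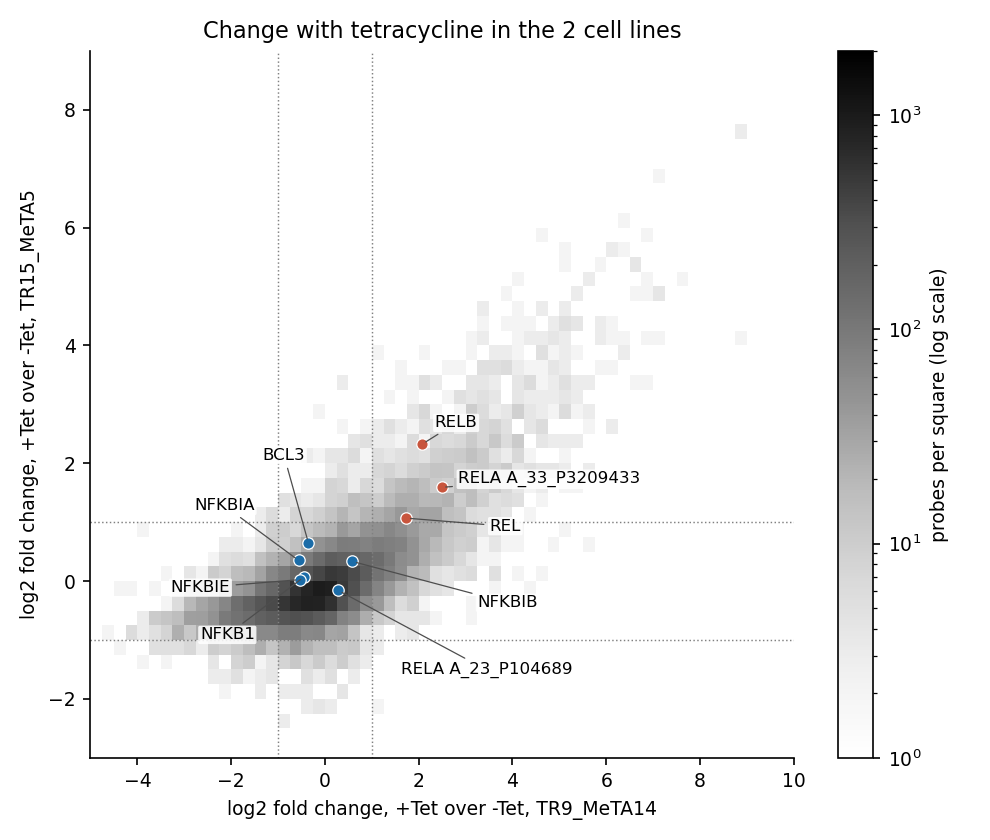
Log2 fold change with tetracycline (+Tet over -Tet) in TR9_MeTA14 on the horizontal and in TR15_MeTA5 on the vertical axis, with the number of all probes per square in grey, 9 member probes as points and dotted lines at 2-fold. RELB, REL and RELA probe A_33_P3209433 (red) lie above 2-fold in both lines, and the other 6 probes (blue) lie inside the lines in both directions.

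Processed signals are intensities after background subtraction and are not scaled between arrays. The 75th percentile over probes was 617 (-Tet) and 776 (+Tet) for TR9_MeTA14, and 366 and 542 for TR15_MeTA5, which divides the +Tet to -Tet ratios by 1.26 and 1.48. Signals are therefore comparable between arrays only after this step, and never between probes. The error that could be measured was that of replicate spots on an array, which gave a standard deviation (SD) of 0.0893 for a log2 ratio, and of 0.144 for probes with signals under 200. It covers technical error within an array and not the spread between cultures.

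RELB, the subunit of the noncanonical pathway that pairs chiefly with p52, had the most even increase. Its probe A_23_P55706 had a processed signal of 354 (-Tet) and 1878 (+Tet) for TR9_MeTA14, and of 323 and 2392 for TR15_MeTA5. Both treated arrays lay above both untreated ones. The log2 fold changes were 2.08 and 2.32. When each probe was ranked by the smaller of its 2 changes, 666 of 21663 probes (3.07%) ranked above RELB. Over both lines, limma with the cell line as a block put the log2 change at 2.20 (standard error 0.25, adjusted p = 0.0390), higher in 2 of 2 lines. RELB was the member that passed this test, in which 2.53% of 22810 probes were called higher. The adjusted p lay between 0.00756 and 0.0881 under the alternatives, and the call was lost without the intensity trend, without the block, and when probes had to be well above background on all 4 arrays. RELB was at least 3-fold higher in both lines under each way of scaling the arrays that was compared.

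REL, which encodes c-Rel, a subunit best known from lymphoid cells, was dimmer. Probe A_23_P56938 read 123 (-Tet) and 515 (+Tet) for TR9_MeTA14, and 51.2 and 159 for TR15_MeTA5. After scaling, the treated array lay above the untreated one in each line and both treated arrays above both untreated ones. The log2 fold changes were 1.74 and 1.07. In TR15_MeTA5 this value was close to 2-fold, and it was 0.96 with quantile normalization and 0.64 after normexp background correction with quantile normalization. Over both lines limma gave 1.40 (standard error 0.31, adjusted p = 0.144), which did not pass. This is one of the members with matches to the κB consensus printed above.

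RELA encodes p65, the main activating subunit of the canonical pathway, and its 2 probes did not change alike although the array design pairs both with the same transcript, NM_021975. Probe A_33_P3209433, with 1 spot per array, read 660 (-Tet) and 4658 (+Tet) for TR9_MeTA14, and 468 and 2085 for TR15_MeTA5. Its treated arrays lay above its untreated ones, with log2 fold changes of 2.49 and 1.59. Probe A_23_P104689, averaged over 9 or 10 spots per array, read 723 (-Tet) and 1110 (+Tet) for TR9_MeTA14, and 561 and 743 for TR15_MeTA5. After scaling its log2 fold changes were 0.29 and -0.16, and the scaled level on the 4 arrays stayed between 1.17 and 1.53 times the 75th percentile. The sign in TR15_MeTA5 depended on the scaling and was positive, at 0.24, with spike-in scaling.

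The change of probe A_33_P3209433 exceeded that of the other RELA probe by 2.20 in TR9_MeTA14 and by 1.75 in TR15_MeTA5 on the log2 scale, or 4.60-fold and 3.36-fold. Among 2847 genes with several probes well above background on all 4 arrays, 80 (2.81%) had probes whose changes differed at least 2-fold in the same order in both lines, and RELA was among them. In 22 genes (0.773%), RELA included, a pair of probes was as far apart as these in both lines. A difference between probes does not depend on how arrays are scaled by a constant. MBD2, which encodes a methyl-CpG binding protein, was read by 2 probes that moved apart, but the array design pairs them with different transcripts. Its probe A_24_P119201 read 18.9 and 20.7 without tetracycline, the former not well above background. With tetracycline it was 5.84-fold higher in TR15_MeTA5 and at least 8.43-fold higher in TR9_MeTA14. Its probe A_23_P15864 read 5088 (-Tet) and 2638 (+Tet) for TR9_MeTA14, and 3697 and 3887 for TR15_MeTA5. The log2 fold changes of A_24_P119201 were at least 3.08 in TR9_MeTA14 and a measured 2.55 in TR15_MeTA5. Those of A_23_P15864 were -1.28 and -0.49. Whether a probe of either gene reads RNA of the construct was not tested, as probe sequences and the sequence of the construct were not used here. Over both lines limma gave 2.04 (standard error 0.33, adjusted p = 0.0727) for RELA probe A_33_P3209433 and 0.06 (standard error 0.27, adjusted p = 0.910) for A_23_P104689. The former passed in 3 of 10 alternatives, with adjusted p between 0.0185 and 0.0973.

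**Figure D2:**
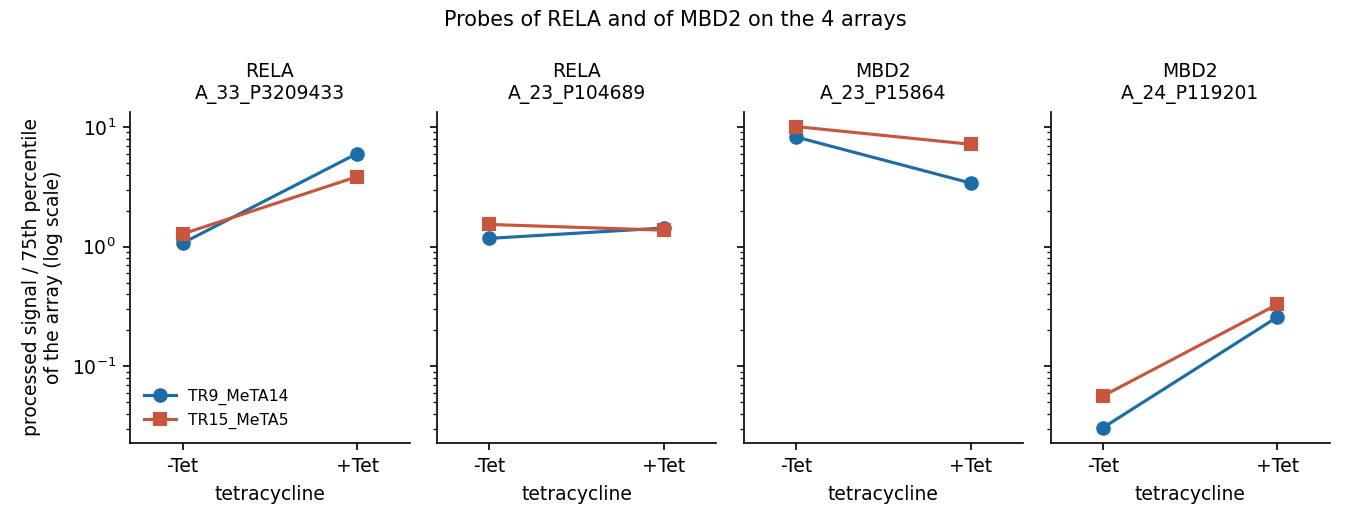
Processed signal divided by the 75th percentile of its array (vertical axis, log scale) without and with tetracycline for the 2 probes of RELA and the 2 of MBD2, 1 line of points per cell line and 1 array per point. RELA probe A_33_P3209433 and MBD2 probe A_24_P119201 are higher with tetracycline in both lines, while RELA probe A_23_P104689 stays between 1.17 and 1.53.

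NFKB1 encodes the precursor of p50. Probe A_23_P30024, averaged over 9 or 10 spots per array, read 521 (-Tet) and 481 (+Tet) for TR9_MeTA14, and 311 and 483 for TR15_MeTA5. After scaling its spots ranged from 0.783 to 0.893 without and from 0.582 to 0.665 with tetracycline in TR9_MeTA14, so that the spots of the treated array lay below those of the untreated one. In TR15_MeTA5 the spots ranged from 0.763 to 0.903 and from 0.851 to 0.953 and overlapped. The log2 fold changes were -0.44 and 0.07. The limma effect over both lines was -0.19 (standard error 0.28, adjusted p = 0.729).

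Of the inhibitors, NFKBIA encodes IκBα, which binds RELA-containing dimers and is resynthesised after they act. Probe A_23_P106002, averaged over 10 spots, read 3395 (-Tet) and 2895 (+Tet) for TR9_MeTA14, and 3601 and 6788 for TR15_MeTA5. Scaled spots ranged from 5.07 to 5.80 without and from 3.53 to 3.99 with tetracycline in TR9_MeTA14, while in TR15_MeTA5 the spots read 3371 to 3921 and 6467 to 7060, ranges that stay apart after division by 1.48. The treated array was thus the lower one in TR9_MeTA14 and the higher one in TR15_MeTA5, in neither line with overlapping spots. The log2 fold changes were -0.56 and 0.35, and these directions held under each normalization that was compared. Among all 21663 probes compared in both lines, 8.08% were likewise lower in TR9_MeTA14 and higher in TR15_MeTA5, by any amount. The limma effect was -0.11 (standard error 0.33, adjusted p = 0.877).

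NFKBIE, the gene of IκBε, was read by probe A_23_P30655 at 592 (-Tet) and 514 (+Tet) for TR9_MeTA14, and at 422 and 635 for TR15_MeTA5. Its log2 fold changes of -0.54 and 0.02 resembled those of NFKB1 in size. NFKBIB, the gene of IκBβ, was read by probe A_33_P3343545 at 133 (-Tet) and 252 (+Tet) for TR9_MeTA14, and at 90.2 and 168 for TR15_MeTA5. It was the inhibitor with a higher treated array in both lines by more than the spot error of dim probes, at 0.59 and 0.33 on the log2 scale. After normexp these values were 0.31 and 0.08, so that the latter was within that error. By limma neither gene passed, with adjusted p = 0.637 for NFKBIE and adjusted p = 0.396 for NFKBIB.

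TNFAIP3 encodes A20, a ubiquitin-editing enzyme that shuts off signalling upstream of the IκB kinase. Probe A_24_P157926 read 8.46 (-Tet) and 14.9 (+Tet) for TR9_MeTA14, and 8.88 and 24.8 for TR15_MeTA5. It was well above background on TR15_MeTA5 +Tet alone. TR9_MeTA14 therefore has no fold change, while the level of TR15_MeTA5 was at least 1.09-fold higher with tetracycline, set against the lowest signal well above background on the untreated array. It was not tested by limma, which needed 2 such arrays. The upstream stretch of TNFAIP3 with its 2 matches is printed above.

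BCL3 encodes an atypical nuclear IκB protein that binds p50 and p52 dimers and can act as a coactivator. Probe A_23_P4662 read 2857 (-Tet) and 2815 (+Tet) for TR9_MeTA14, and 1425 and 3300 for TR15_MeTA5. After scaling, the treated array was lower in TR9_MeTA14, at -0.35, and higher in TR15_MeTA5, at 0.65 on the log2 scale. With spike-in scaling the latter was 1.04 and passed 2-fold. The limma effect over both lines was 0.15 (standard error 0.35, adjusted p = 0.831).

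**Figure D3:**
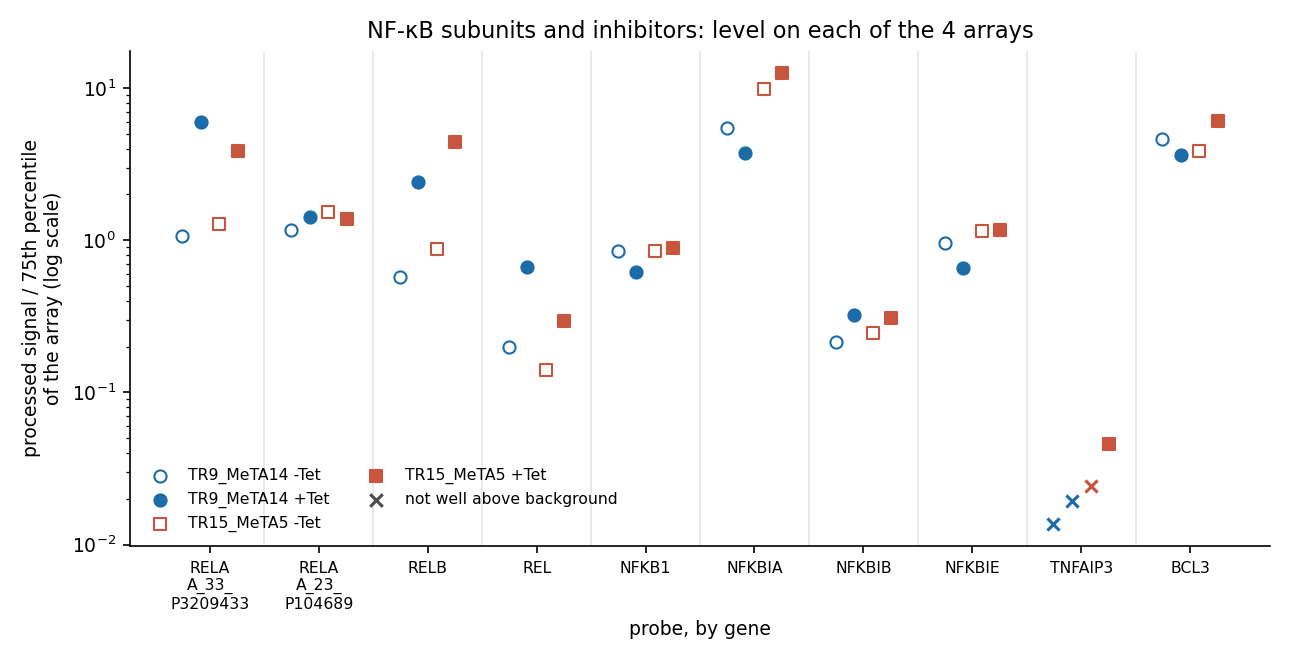
Processed signal divided by the 75th percentile of its array (vertical axis, log scale) for each member probe on the 4 arrays, with open symbols for -Tet, filled symbols for +Tet and crosses for signals not well above background. Levels may be compared between arrays within a probe and not between probes. The filled symbols of RELB, REL and RELA probe A_33_P3209433 lie above the open ones, and TNFAIP3 was well above background on 1 array.

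The lines were also compared at the same treatment. Without tetracycline, 0 member probes differed 2-fold between TR9_MeTA14 and TR15_MeTA5, beside 13.9% of all 21650 probes compared. The widest gap was that of NFKBIA, 1.79-fold higher in TR15_MeTA5. With tetracycline, 3 of 10 member probes differed at least 2-fold, beside 24.4% of 22981 probes. NFKBIA was 3.36-fold higher and TNFAIP3 at least 2.38-fold higher in TR15_MeTA5, while REL was 2.26-fold higher in TR9_MeTA14. These values depend on the normalization. With tetracycline and spike-in scaling, TNFAIP3 was at least 0.55 higher on the log2 scale, which is under 2-fold, NFKBIA was 1.04 higher, and RELA probe A_33_P3209433 passed 2-fold at -1.35. After normexp, TNFAIP3 was at 0.20 and REL at -0.96, both under 2-fold. With spike-in scaling NFKBIA was lower in untreated TR15_MeTA5, at -0.13 on the log2 scale against 0.84, and REL and BCL3 were then over 2-fold higher in untreated TR9_MeTA14, at -1.48 and -1.22.

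The remainder of the pathway was examined with 6 lists holding 124 genes, of which 123 had a probe and 97 were compared in both lines. At least 2-fold higher in both lines were 7 of the 97, or 7.22%, beside 8.20% of 13982 genes. At least 2-fold lower in both were 0 of the 97, beside 117 of the 13982 genes. The median log2 fold change over the lists was 0.01 in TR9_MeTA14 and -0.14 in TR15_MeTA5, beside -0.06 and -0.16 for all genes. By limma 3 of 99 genes tested were higher at an adjusted p below 0.05, namely NFATC1, IER3 and ICAM1, beside 457 of 14466 genes. ICAM1 entered the test through its treated arrays alone, so that its call rests on untreated values that were not well above background. Lower at an adjusted p below 0.05 were 0 of the 99, beside 1 of the 14466 genes. At an unadjusted limma p below 0.05, 13 of the 99 were higher and 6 lower, beside 1901 and 1180 of the 14466 genes. The brightest probe stood for each gene.

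The subunits of the IκB kinase and MAP3K14 stayed within 2-fold in both lines. For CHUK and IKBKB, the catalytic subunits, the log2 fold change was -0.33 and -0.32 in TR9_MeTA14 and -0.20 and -0.20 in TR15_MeTA5. The values of both in TR15_MeTA5 turned positive, at 0.20 and 0.19, with spike-in scaling. IKBKG, the regulatory subunit NEMO, had 0.82 and 0.23, and MAP3K14, the NIK kinase of the noncanonical pathway in which RELB acts, had -0.51 and 0.34. Of 17 genes of the kinase list compared in both lines, IRAK2, a kinase of the interleukin-1 and Toll-like receptor pathways, was the single one at least 2-fold higher in both. It read 82.1 (-Tet) and 322 (+Tet) for TR9_MeTA14, and 45.1 and 157 for TR15_MeTA5, or 1.64 and 1.24 on the log2 scale, and 0.99 and 0.64 after normexp.

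Among receptors and adaptors, 1 of 19 was 2-fold higher in both lines. This was TNFRSF12A, the receptor of the cytokine TWEAK, which signals to noncanonical NF-κB. It read 2438 (-Tet) and 9090 (+Tet) for TR9_MeTA14, and 1068 and 4584 for TR15_MeTA5, or 2.97-fold and 2.90-fold higher after scaling. Of 25 genes of ubiquitin steps and feedback and of 14 nuclear cofactors, 0 were 2-fold higher in both lines, and 0 were lower. Of 7 relatives of NF-κB and IκB, NFATC1, a Rel-domain factor controlled by calcineurin, was 23.9-fold and 7.59-fold higher, from 362 to 10872 and from 258 to 2896. Its limma effect was 3.75 on the log2 scale (standard error 0.47, adjusted p = 0.0464), higher in 2 of 2 lines.

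Of the 30 classical targets of NF-κB, 13 were not well above background on any array, and 15 were compared in both lines. At least 2-fold higher in both were IER3, ICAM1, PLAU and GADD45B, or 26.7% of those compared, beside 8.20% of all genes. IER3, an early-response gene that modulates cell survival, read 44.7 (-Tet) and 10751 (+Tet) for TR9_MeTA14, and 50.1 and 4121 for TR15_MeTA5, or 191-fold and 55.6-fold higher, and its limma effect was 6.69 (standard error 0.50, adjusted p = 0.0186). After normexp its log2 fold changes were 6.23 and 4.79, against 7.58 and 5.80 before. ICAM1, an adhesion molecule, did not clear background on either untreated array and read 78.2 and 230 with tetracycline, an increase of at least 4.02-fold and at least 10.1-fold. PLAU, the urokinase gene, read 18.6 and 51.9 in TR9_MeTA14 and was at least 3.60-fold higher in TR15_MeTA5. GADD45B, a stress-response gene, was 2.34-fold and 3.35-fold higher. In the other direction, SOD2, CCND1 and CFLAR had values of -1.80, -1.54 and -1.27 on the log2 scale for TR9_MeTA14, and of -0.35, -0.51 and -0.63 for TR15_MeTA5. A dimmer CFLAR probe, A_24_P120115, went the other way, at 0.34 and 0.51. These 3 targets are named because their brightest probes were the ones at least 2-fold lower in TR9_MeTA14, and they were chosen after their values were seen. Of 16 targets compared in TR9_MeTA14, 4 were at least 2-fold higher and 3 lower, beside 2535 and 2273 of 15077 genes. In TR15_MeTA5, 7 of 16 were higher and 0 lower, beside 1401 and 317 of 14344 genes. Higher in TR15_MeTA5 were also IRF1 (2.93-fold), MMP9 (2.55-fold) and TNF (at least 2.61-fold), likewise named after their values were seen. After normexp, ICAM1 was at least 0.57 and PLAU 0.25 on the log2 scale in TR9_MeTA14, below 2-fold. PLAU was then also below 2-fold in TR15_MeTA5, at least 0.81 higher. Of the 4 targets 2-fold higher in both lines, IER3 and GADD45B stayed so after normexp.

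**Figure D4:**
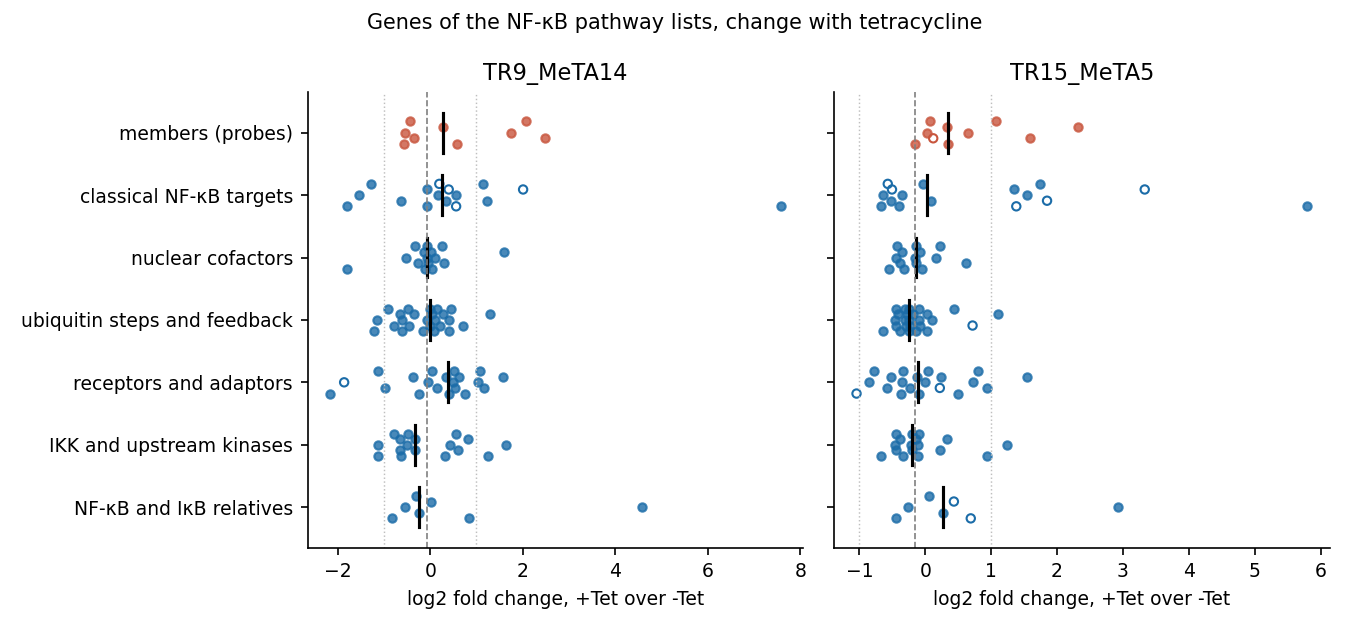
Log2 fold change with tetracycline (+Tet over -Tet, horizontal axis) of each gene of the 6 lists and of the member probes (red) in each line, 1 point per gene, with open points for bounds, black bars for list medians, a dashed line at the median of all genes and dotted lines at 2-fold. IER3 and NFATC1 lie far to the right in both lines, while the medians of the lists lie between -0.33 and 0.38.

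**Figure D5:**
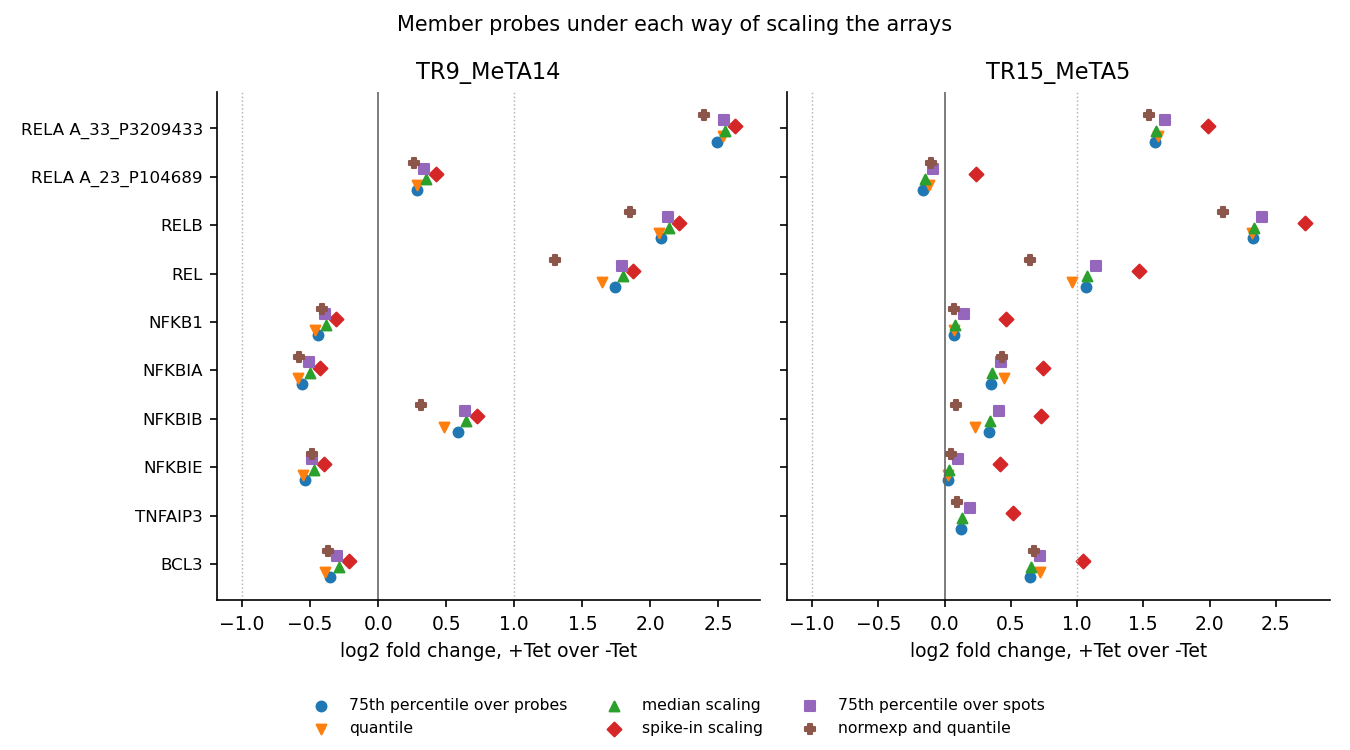
Log2 fold change with tetracycline (horizontal axis) of each member probe in each line under 6 ways of scaling the arrays, 1 symbol per way, with a solid line at 0 and dotted lines at 2-fold. RELB and RELA probe A_33_P3209433 stay beyond 2-fold under all 6, whereas REL in TR15_MeTA5 ranges from 0.64 to 1.46.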

How the data were processed

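Cy3-labeled cRNA of 4 samples was read on 1-color Agilent whole human genome arrays. The authors deposited Agilent Feature Extraction output (version 10.7.3.1 per the file headers, 9.5.1 per the submitters' processing notes), from which the background-subtracted intensity of each spot was taken. A normalization between arrays is not given in the sources used here. After 255 to 344 outlier spots per array were left out, the log2 intensities of the deposited spots were averaged per probe and the 75th percentile over probes was subtracted. RefSeq (GRCh38.p14) named 74.5% of probes, and probe positions were not used here.

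A probe was compared when well above background on the brighter array. Against an array below background, a fold change is a lower bound, set against the higher of the lowest such signal on it and the probe's own signal. The cut-off was 2-fold, after the study's methods. limma 3.58.1 (R 4.3.3) tested all 4 arrays with the cell line as a block, 1 residual degree of freedom and a trend on intensity. It took the 22810 probes that 2 or more arrays measured well above background, over which p-values were adjusted by Benjamini-Hochberg. Simulated counterparts of these 22810 probes gave a recovery of 4.0% at 4-fold and 74.0% at 16-fold, beside 2 false calls. Only 50 probes were changed at each fold size. The adjustment depends on how many probes change, so these rates need not hold for the real arrays. Every member probe is described. From the lists, CHUK, IKBKB, IKBKG and MAP3K14 are named, and per list up to 4 genes at least 2-fold changed the same way in both lines. Members and lists were chosen with earlier results of these data known. Alternatives were other scalings, normexp with an offset of 50, spot and probe filters, cut-offs, plain ratios, and limma without trend or block. Other steps ran in Python 3.11.15 (numpy 2.4.6, pandas 2.3.3).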

Additional observations from a re-analysis of the deposited data

Results flagged for a closer look

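NFKBIA and BCL3 moved in opposite directions in the 2 lines, each by more than 2 times the SD of a log2 ratio from replicate spots, 0.0893. The log2 fold change in TR15_MeTA5 exceeded that in TR9_MeTA14 by 0.91 for NFKBIA and by 1.00 for BCL3. The difference was not tested, since 4 arrays leave no replicate for it. Among the 19303 probes that every array measured well above background, 21.6% had a wider gap between the lines than NFKBIA and 18.7% a wider one than BCL3.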

How the results depend on the processing

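No replicate could be left out, as each condition had 1 array. The limma fit paired the arrays of each cell line through its block, and without that block the adjusted p of RELB was 0.0881. The deposited series table was identical to the processed signals and says nothing about stability. Spike-in scaling raised the median log2 fold change by 0.14 in TR9_MeTA14 and 0.40 in TR15_MeTA5. The number of member probes at least 2-fold higher in both lines was 3, and 2 at a cut-off of 3-fold, with quantile normalization and after normexp. Pathway genes 2-fold higher in both lines, 7 above, were 11 with spike-in scaling and at 1.5-fold, 4 after normexp and 3 at 3-fold. Those lower in both, 0 above, were 5 at 1.5-fold and 2 with plain ratios and no filter. Member probes 2-fold apart between untreated lines, 0 above, were 2 with spike-in scaling and at 1.5-fold. Between treated lines, 3 became 1 after normexp and at 3-fold, and 7 at 1.5-fold. The share of all genes or probes at these other settings is not given here, so the changed counts cannot be set against it. By limma, 1 member probe was higher. It was 2 with spike-in scaling, with the percentile over spots and without a filter, and 0 with the filter on all 4 arrays, without a trend and without a block for the cell line, where 3 kept an unadjusted p below 0.05. No member was lower by limma in any of these fits, and at an unadjusted p below 0.05 each fit had 3 higher and 0 lower. In the main fit, 19.3% of all 22810 probes had an unadjusted limma p below 0.05, in either direction. Of 60 single values, 60 moved beyond the spot SD with spike-in scaling and 27 after normexp, and no value of at least 2-fold changed sign. The cause was not tested. Signal over background limits TNFAIP3, ICAM1, PLAU and TNF.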
